A study of Bos taurus with 8 samples.

Results

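T cells and cytotoxic lymphocytes of the calf jejunum were followed here through 42 genes of the T cell receptor, of helper, regulatory and cytotoxic cells, and of the receptors that bring these cells to the gut. The 42 were chosen by gene symbol, with earlier results of these data known, and all 42 were present among the 17932 genes of the table. Jejunal tissue came from Holstein bull calves killed on day 90 of the feeding trial, shortly after milk replacer had been withdrawn, and each calf gave 1 poly(A) RNA-seq library. The sample labels name jejunal tissue, although the protocol text in the same labels names liver. The control group (CON) received milk replacer and starter without postbiotic, and the DCLI group was given the same feed with 1 g/d of heat-inactivated *Limosilactobacillus ingluviei* C37 (listed by the submitters as dead-cell Lactobacillus ingluviei CR37). Each group holds 4 calves (CON1 to CON4 and DCLI1 to DCLI4), picked at random from a larger group, so replicate error here is variation among animals. The values are TPM, a transcript's share of its library corrected for transcript length, so levels may be compared between genes. The question put to these genes was whether the calves fed the postbiotic differed from the control calves in their intestinal lymphocyte transcripts, with helper, regulatory and cytotoxic genes taken apart.

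T cells recognise peptides on MHC molecules through a receptor that signals by the CD3 chains. CD4 marks helper and regulatory cells and binds MHC class II, whereas CD8 marks cytotoxic cells and binds MHC class I. Cytotoxic T cells and natural killer cells destroy infected or damaged cells with perforin and granzymes. In the small intestine many T cells lie between the epithelial cells, held there by the integrin of ITGAE and ITGB7 and drawn in by CCR9, the receptor of the chemokine CCL25, while CCR7 leads naive cells to lymphoid tissue. Ruminants are known for a large share of gamma-delta T cells in blood and gut.

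The label of the list held in every library. CD3D, CD3E, CD3G, CD247 and CD2 were at a TPM of 20.8 or more in every calf, and 41 of the 42 members were above 0 in all 8 libraries. The exception was CD40LG, listed at 0 in CON3, DCLI2 and DCLI4. By mean TPM over the 8 calves, 26 of the 42 members reached 10 and 3 were under 1 (FOXP3, EOMES and CD40LG). The cytotoxic protease gzmA was the most abundant member, with a mean TPM of 235.9 that placed it at percentile 96.1 of the tested genes. CD3E followed at 175.8 and CD247 at 161.4, the signalling kinase LCK was at 72.2, GZMB at 71.9 and the integrin chain ITGB7 at 65.0. Transcripts of the receptor complex, of granzymes and of the gut integrin were thus abundant, and FOXP3 was close to the lowest level that was tested.

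**Figure D1:**
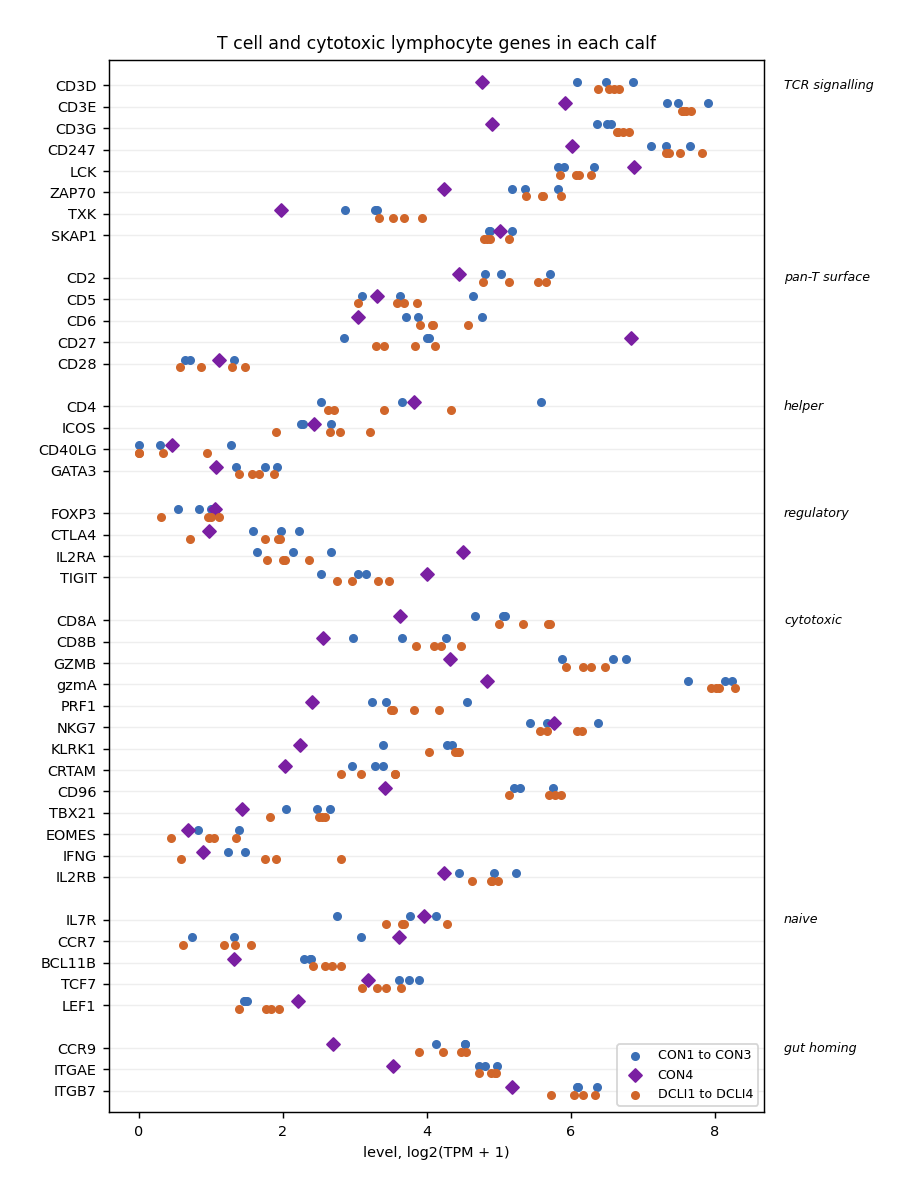
Level of the 42 genes in each calf, as log2(TPM + 1) on the horizontal axis, with genes grouped by role. Each point is 1 calf (blue, CON1 to CON3; purple diamond, CON4; orange, DCLI1 to DCLI4); CON4 lies to the left of all other calves for 23 genes and to the right of them for 6.

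One control library, CON4, stood apart from the other 7. Across genes, Pearson's r of log2(TPM + 1) between CON4 and another library was 0.853 to 0.885, against 0.945 to 0.984 between any other pair. The summed TPM of 10 B cell genes was 3941 in CON4 and 19.9 to 41.5 elsewhere, with VPREB3 at 1033 in CON4. That of 10 enterocyte genes was 1336 in CON4 and 10131 to 35066 elsewhere. Of the members, 23 of 40 tested (57.5%) were lowest in CON4, where 28.8% of all tested genes were, and 6 were highest in CON4 (LCK, CD27, IL2RA, TIGIT, CCR7 and LEF1), where 39.8% of all tested genes were. The most abundant genes of the other lists ranged from 350 TPM (CON4) to 21045 for FABP2 of enterocytes, 185 to 1894 for JCHAIN of plasma cells, 96.4 to 436 for C1QA of macrophages, 284 to 3283 for ACTG2 of smooth muscle and 14.98 to 32.4 for PECAM1 of endothelium. Because of CON4, many of the comparisons are also given without that calf. In tissue of mixed cells, fewer cells of a type and less RNA per cell cannot be told apart.

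**Figure D2:**
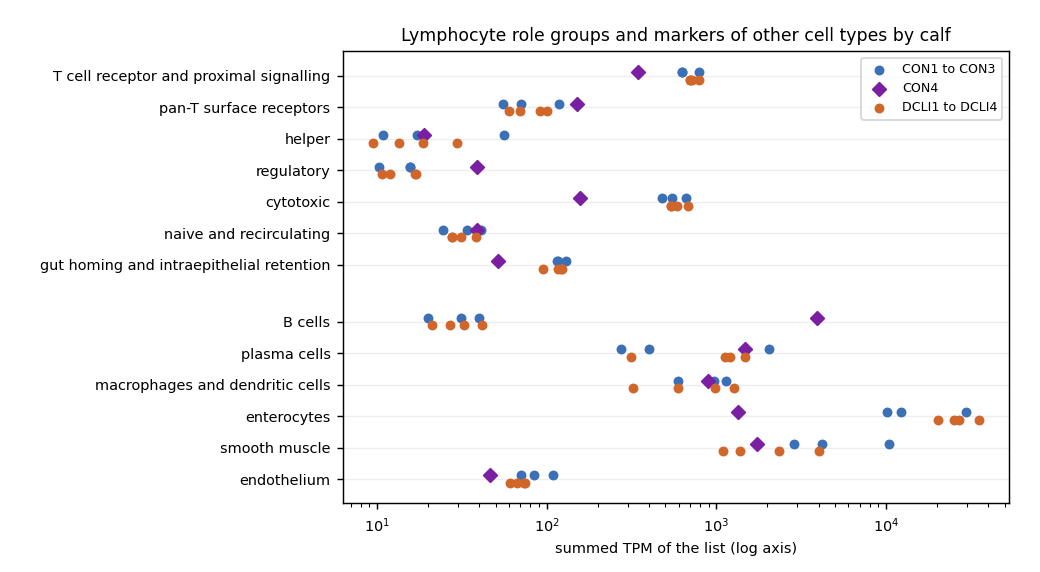
Summed TPM of each list (log axis) in each calf, for the 7 role groups of lymphocyte genes and for markers of 6 other cell types. CON4 (purple diamond) has the highest B cell sum (3941) and the lowest enterocyte sum (1336), and its cytotoxic sum of 158 lies below the 478 to 679 of the other 7 calves.

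DCLI and CON calves were compared with limma on log2(TPM + 1), in 13228 genes that reached a TPM of 1 in 4 or more libraries. A log2 difference below is DCLI minus CON on that scale, which makes a change in a gene of low TPM look smaller than it is, and an adjusted p is adjusted over all genes tested. Of the 42 members, 40 passed the filter, and CD40LG and EOMES did not. No member passed an adjusted p of 0.05, and 0% of all tested genes did. The smallest adjusted p of a member was 0.696. At an unadjusted p under 0.05 there were 2 members, TXK and CD8A, both higher in DCLI, against 4.09% of all tested genes higher and 2.99% lower (7.08% in either direction). In 3 members, CD3G, TXK and BCL11B, every DCLI calf was above every CON calf, a pattern of 2.28% of all tested genes, and in 0 members was every DCLI calf below every CON calf, a pattern of 3.11% of all tested genes. Without CON4 the same 3 of 38 members did not overlap, all higher in DCLI, where 3.42% of all genes tested in that fit were. The same 2 had an unadjusted p under 0.05, where 10.1% of all genes in that fit did. Without CON1, 7 of 38 members did not overlap, all higher in DCLI, where 3.31% of all genes tested in that fit were, and without DCLI4 5 of 40, where 3.97% were. At an unadjusted p under 0.05 there were 4 members without CON1 (7.14% of all genes in that fit), 1 without DCLI1 (3.33%), 0 without DCLI2 (3.95%) and 0 without DCLI3 (6.08%).

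Of the 40 tested members, 29 had a positive log2 difference and 11 a negative one, with a median of 0.26. Over all tested genes 43.5% were positive and the median was -0.06. Without CON4, 38 members reached the filter, 25 were positive and 13 negative, and the median was 0.04, against 51.4% positive and a median of 0.01 over all genes tested in that fit. Most of the median was thus lost without CON4. Markers of other cell types did not pass the test either, with a smallest limma adjusted p of 0.692 for enterocytes and 0.712 for smooth muscle. The log2 difference was positive for all 10 enterocyte genes (median 0.84, and 0.45 without CON4, with 7 of 10 positive). At an unadjusted p under 0.05 there were 3 of these 10, against 4.09% of all tested genes higher at that p. The log2 difference was negative for all 6 smooth muscle genes (median -0.99, and -1.36 without CON4). At an unadjusted p under 0.05 there were 0 of these 6, against 2.99% of all tested genes lower at that p. Without CON4, ACTA2 (limma unadjusted p = 0.000871, adjusted p = 0.379) and TAGLN (0.0203 and 0.426) were under 0.05 unadjusted. MYH11, DES, CNN1 and ACTG2 were not, and 10.1% of all genes in that fit were, in either direction. The summed TPM of smooth muscle genes ran from 1728 to 10345 in CON and from 1088 to 4013 in DCLI. The part of these cell types in the lymphocyte values was not tested.

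**Figure D3:**
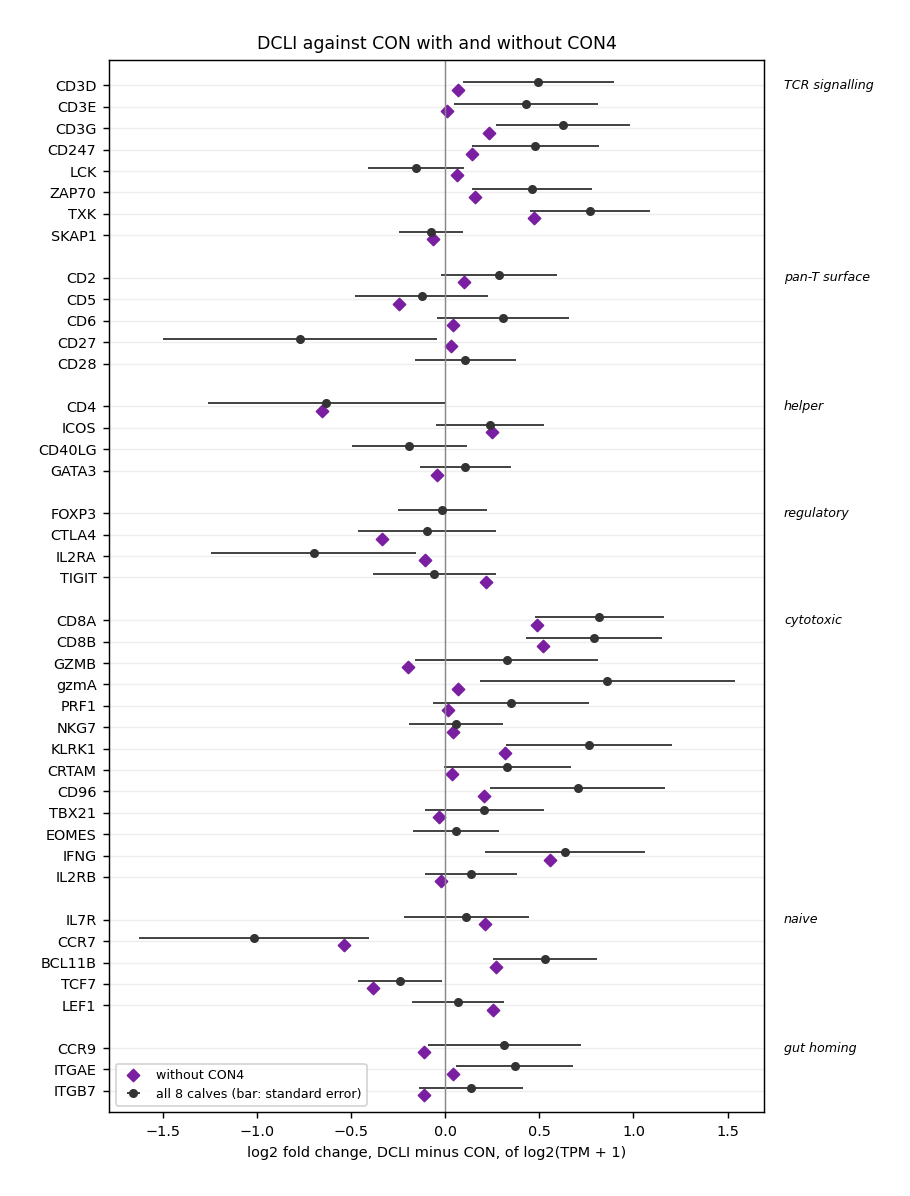
Log2 difference of each gene, DCLI minus CON on the log2(TPM + 1) scale, from all 8 calves (black, bar: standard error) and without CON4 (purple diamond; absent for CD28, CD40LG, FOXP3 and EOMES, which missed the filter). Most diamonds lie nearer to 0 than the black points. The diamonds farthest above 0 are those of IFNG (0.56), CD8B (0.52), CD8A (0.49) and TXK (0.47). Those farthest below 0 are CD4 (-0.66) and CCR7 (-0.54).

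Each CD3 chain varied by at most 1.73-fold among the 7 calves other than CON4. CD3E, a signalling chain of the receptor complex, had a TPM of 240.0, 178, 161 and 59.5 in CON1 to CON4 and of 187, 185, 192 and 203 in DCLI1 to DCLI4. The DCLI calves lay inside the range of CON1 to CON3, and only CON4 was lower (log2 difference 0.43, SE 0.38, limma adjusted p = 0.775; 0.01 without CON4). CD3G, another chain of the complex, had 81.1, 89.4, 93.7 and 28.9 in CON and 99.9, 111, 105 and 98.8 in DCLI. Here every DCLI calf was above every CON calf. The means were 104 ± 5.45 and 73.3 ± 30.0 (SD, n = 4), with a log2 difference of 0.63 (SE 0.35, limma adjusted p = 0.730). A 2-sided exact permutation test on mean TPM gave p = 0.0286, the smallest that 4 against 4 calves allow. Every gene without overlap has this p, so it only restates the lack of overlap, and it is not adjusted over genes. Without CON4 the log2 difference was 0.23 (adjusted p = 0.559).

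TXK, a Tec-family kinase of T cells, had a TPM of 8.69, 8.93, 6.27 and 2.91 in CON and of 9.12, 11.9, 14.2 and 10.6 in DCLI. The groups did not overlap, although DCLI1 was only just above CON2. The log2 difference was 0.77 (SE 0.32, unadjusted p = 0.0396, limma adjusted p = 0.696) and 0.47 without CON4 (adjusted p = 0.485). Among all 8 genes of the receptor and its signalling, 6 had a positive log2 difference and 2, LCK and SKAP1, a negative one that turned positive with array weights (median 0.47, and 0.10 without CON4). CD3D, CD247 and ZAP70, the kinase that docks on the CD3 chains, were lowest in CON4 (26.2, 63.8 and 17.9 TPM, against at least 66.7, 138 and 35.2 elsewhere). LCK, the kinase that phosphorylates the CD3 chains, did the opposite, at 117 TPM in CON4 and 55.7 to 78.8 elsewhere. SKAP1, an adaptor between the receptor and integrins, was at 26.8 to 35.3 TPM in every calf.

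Among the surface receptors shared by most T cells, CD2 had a TPM of 51.1, 31.6, 27.0 and 20.8 in CON and of 45.6, 34.4, 49.3 and 26.5 in DCLI. This adhesion receptor overlapped widely between the groups (log2 difference 0.29, SE 0.31, limma adjusted p = 0.802). CD6, a scavenger receptor of T cells, ran from 7.23 in CON4 to 26.2 in CON1, with 13.9 to 22.7 in DCLI. CD27, a costimulatory receptor that B cells carry as well, was at 114 TPM in CON4 and at 15.36, 15.01 and 6.20 in CON1 to CON3. In DCLI it was at 16.3, 8.76, 13.2 and 9.58. Its log2 difference of -0.77 (SE 0.73, limma adjusted p = 0.780) became 0.03 without CON4. CD5 and CD28, a modulator and a costimulator of the receptor signal, were at 7.26 to 23.9 and at 0.49 to 1.78 TPM over all calves. Of the 5 genes 3 were higher in DCLI and 2 lower (median 0.11, and 0.03 without CON4).

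Among the helper genes, CD4 had a TPM of 46.8, 11.6, 4.75 and 13.2 in CON and of 19.2, 5.53, 9.55 and 5.15 in DCLI. CON1 was the highest, 9.86 times the lowest of the 7 calves other than CON4, and the groups overlapped. The mean was 19.1 ± 18.9 in CON and 9.85 ± 6.52 in DCLI (SD, n = 4), with a log2 difference of -0.63 (SE 0.63, limma adjusted p = 0.794), of -0.66 without CON4 and of -0.071 without CON1. The summed TPM of 10 macrophage and dendritic cell genes was 1146 in CON1, against 594 to 962 in CON2 to CON4 and 321 to 1273 in DCLI. In that list CD68 was high in CON1 and CON4 (76.6 and 99.2 TPM, at most 36.7 elsewhere), whereas C1QA, C1QB and C1QC were highest in DCLI3 (436, 348 and 370 TPM). The part of these cells in the CD4 values was not tested. ICOS, a costimulatory receptor of activated helper cells, was at 5.33, 3.83, 3.74 and 4.39 TPM in CON and at 8.21, 5.30, 5.93 and 2.75 in DCLI. The DCLI calves thus lay on both sides of the CON range (log2 difference 0.24, SE 0.29, limma adjusted p = 0.816). CD40LG, the signal by which helper cells activate B cells, was at most 1.43 TPM (CON1). GATA3, a transcription factor of type 2 helper cells, was at 1.10 to 2.76 in CON and at 1.63 to 2.67 in DCLI. Of the 3 tested helper genes 2 were higher and 1 lower in DCLI (median 0.11), and 1 and 2 without CON4 (median -0.04).

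Among the regulatory genes, FOXP3, the transcription factor of regulatory T cells, had a TPM of 1.01, 0.78, 0.46 and 1.07 in CON and of 1.16, 1.00, 0.94 and 0.24 in DCLI. Means of 0.83 ± 0.277 and 0.835 ± 0.407 (SD, n = 4) left a log2 difference of -0.01 (SE 0.24, limma adjusted p = 0.988), at levels that are near the bottom of the tested genes (percentile 0.0756). CTLA4, an inhibitory receptor, was at 1.99, 3.67, 2.92 and 0.97 TPM in CON and at 2.35, 2.83, 2.90 and 0.64 in DCLI. In each group 1 calf was under 1 TPM, CON4 and DCLI4. IL2RA, the high-affinity interleukin-2 receptor chain of regulatory and activated cells, reached 21.7 TPM in CON4 and was at 5.37, 3.40 and 2.13 in the other control calves. The DCLI calves had 4.14, 2.42, 3.02 and 3.07, within the range of CON1 to CON3, and the log2 difference of -0.70 (SE 0.54, limma adjusted p = 0.758) was -0.11 without CON4. TIGIT, an inhibitory receptor of T and natural killer cells, was at 15.1 TPM in CON4, 4.78 to 7.90 in CON1 to CON3 and 5.74 to 10.1 in DCLI. All 4 genes had a negative log2 difference (median -0.08, but 0.080 without DCLI4), except that FOXP3 and TIGIT were positive with array weights, and 3 of these 4 were highest in a CON calf, CON4 for IL2RA and TIGIT and CON2 for CTLA4. Without CON4, 3 reached the filter, 1 higher and 2 lower (median -0.11).

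The cytotoxic group had 12 tested genes, all with a positive log2 difference (median 0.49), but 10 of its 13 members were lowest in CON4. Without CON4, 9 of the 12 were positive and 3 negative, and the median was 0.06. CD8A, a chain of the CD8 coreceptor, had a TPM of 32.9, 24.5, 32.4 and 11.3 in CON and of 39.4, 50.3, 51.2 and 30.9 in DCLI. In 3 of the 4 DCLI calves it was above every CON calf, and DCLI4 fell within the CON range. The mean was 42.9 ± 9.64 in DCLI and 25.3 ± 10.1 in CON (SD, n = 4), 1.70 times higher. The log2 difference was 0.82 (SE 0.34, unadjusted p = 0.0411, limma adjusted p = 0.696), and 0.49 without CON4 (unadjusted p = 0.0478, adjusted p = 0.489), where 10.1% of all tested genes had an unadjusted p under 0.05. The exact permutation test on mean TPM gave p = 0.0857 (2-sided). CD8B, the partner chain, was at 18.3, 6.87, 11.6 and 4.86 TPM in CON and at 17.3, 21.3, 16.1 and 13.4 in DCLI. CON1 lay within the DCLI range, and the other control calves below it (log2 difference 0.79, SE 0.36, limma adjusted p = 0.700).

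For gzmA, GZMB and PRF1, CON4 lay below every other calf, unlike for NKG7, a protein of cytotoxic granules, at 53.6 TPM in CON4 and 42.4 to 82.5 elsewhere. The TPM of gzmA was 300.2, 283, 198 and 27.6 in CON and 259, 245, 309 and 266 in DCLI. The DCLI calves and CON1 to CON3 shared one range, and CON4 was far below it (log2 difference 0.86, SE 0.68, limma adjusted p = 0.758; 0.07 without CON4). GZMB, the granzyme that activates caspases, had 108, 58.0, 95.1 and 19.0 in CON and 76.8, 71.1, 87.9 and 60.1 in DCLI. The log2 difference turned from 0.33 (SE 0.48, limma adjusted p = 0.847) to -0.20 without CON4. PRF1, the pore-forming perforin, had 22.5, 9.80, 8.45 and 4.30 in CON and 10.6, 10.3, 17.0 and 13.1 in DCLI. CON1 was the highest of all calves, and the log2 difference was 0.35 (SE 0.41, limma adjusted p = 0.814), or 0.01 without CON4. Granzymes and lectin-like killer cell receptors belong to families of similar genes, and their TPM depends on how RSEM divided reads between the copies.

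The other cytotoxic genes gave no larger log2 difference than gzmA. KLRK1, the activating receptor NKG2D, was at 3.70 to 19.4 TPM in CON and at 15.4 to 20.7 in DCLI (log2 difference 0.76, and 0.32 without CON4). CD96, a receptor for nectin-like ligands, was at 9.69 to 52.9 and 34.4 to 57.2 (0.70, and 0.20 without CON4), and CRTAM, a receptor of activated killer cells, at 3.09 to 9.51 and 5.97 to 10.8 (0.33, and 0.035 without CON4). NKG7 was at 42.4 to 82.5 and 46.4 to 70.6, and IL2RB, a receptor chain for interleukins 2 and 15, at 17.95 to 36.9 and 23.6 to 30.7. The transcription factors TBX21 and EOMES were at 1.69 to 5.28 and 0.60 to 1.62 TPM in CON, and at 2.52 to 5.02 and 0.36 to 1.54 in DCLI. IFNG, which encodes interferon gamma, was at 0.86 to 1.77 in CON and at 2.38, 2.75, 5.98 and 0.50 in DCLI. In 3 of the 4 DCLI calves IFNG was above every CON calf and in DCLI4 below, and the log2 difference was 0.64 (SE 0.42, limma adjusted p = 0.743; 0.56 without CON4).

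Among the genes of naive and recirculating cells, CCR7 had a TPM of 7.50, 1.49, 0.66 and 11.3 in CON and of 1.52, 1.27, 1.95 and 0.53 in DCLI. CON1 and CON4 were high, and CON2 and CON3 lay within the DCLI range. The log2 difference was -1.02 (SE 0.61, limma adjusted p = 0.739), and -0.54 without CON4. BCL11B, a transcription factor of the T cell lineage, had 4.26, 4.17, 3.89 and 1.5 in CON and 4.34, 6.0, 5.43 and 4.99 in DCLI. Every DCLI calf was above every CON calf, but DCLI1 was only just above CON1. The log2 difference was 0.53 (SE 0.28, limma adjusted p = 0.718), and 0.27 without CON4. The exact permutation p of 0.0286 again only restates the lack of overlap. IL7R, the interleukin-7 receptor, was at 16.5, 12.6, 5.76 and 14.5 TPM in CON and at 18.5, 11.6, 9.81 and 11.8 in DCLI, with DCLI1 highest and CON3 lowest. TCF7 and LEF1, the transcription factors that keep T cells in a naive or memory state, had log2 differences of -0.24 and 0.07. LEF1 was at 3.64 in CON4 and at 1.62 to 2.84 elsewhere.

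The gut-homing genes were among the steadiest members outside CON4. ITGAE, which encodes the alpha chain that binds E-cadherin on epithelial cells, had a TPM of 25.5, 27.0, 30.3 and 10.6 in CON and of 28.6, 30.1, 29.9 and 25.4 in DCLI. The 7 calves other than CON4 lay within 1.2-fold of each other, the narrowest range of the 41 members above 0 in these calves (median 1.95-fold, and 14.2-fold for CCR7, the widest). ITGB7, the beta chain, had 81.7, 66.7, 67.6 and 35.4 in CON and 71.3, 65.3, 79.7 and 52.0 in DCLI. CCR9, the receptor of CCL25, had 22.1, 22.1, 16.5 and 5.47 in CON and 22.3, 21.3, 13.8 and 17.8 in DCLI. All 3 were lowest in CON4, and their log2 differences of 0.37, 0.14 and 0.31 were 0.04, -0.11 and -0.11 without it, with CCR9 also negative under array weights.

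Ratios of 2 genes within a library do not depend on how the library was scaled. The TPM of CD8A was 0.703, 2.11, 6.81 and 0.857 times that of CD4 in CON1 to CON4, and 2.05, 9.09, 5.36 and 6.01 times in DCLI1 to DCLI4. CD4 exceeded CD8A in CON1 and CON4 only. On the log2 scale the mean ratio was 0.77 ± 1.48 in CON and 2.29 ± 0.90 in DCLI (SD, n = 4), a difference of 1.52. In a 2-sided exact permutation test this difference had p = 0.200, and adjusted p = 0.714 over the 5 ratios compared. Without CON4 the difference was 1.19 (exact permutation adjusted p = 0.952). CCR7 was above CCR9 in CON4 alone, at 2.06 times, and at most 0.339 times (CON1) in the other calves (log2 difference -1.64, exact p = 0.286, adjusted p = 0.714; -0.57 without CON4). The ratios of FOXP3, GZMB and ITGAE to CD3E differed by -0.53, -0.09 and -0.04, with exact adjusted p of 0.857, 0.857 and 0.914, and by 0.021, -0.21 and 0.033 without CON4. GZMB was 0.320 of CD3E in CON4 and 0.296 to 0.591 in the other calves, so it was low in CON4 in the measure that CD3E was.

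**Figure D4:**
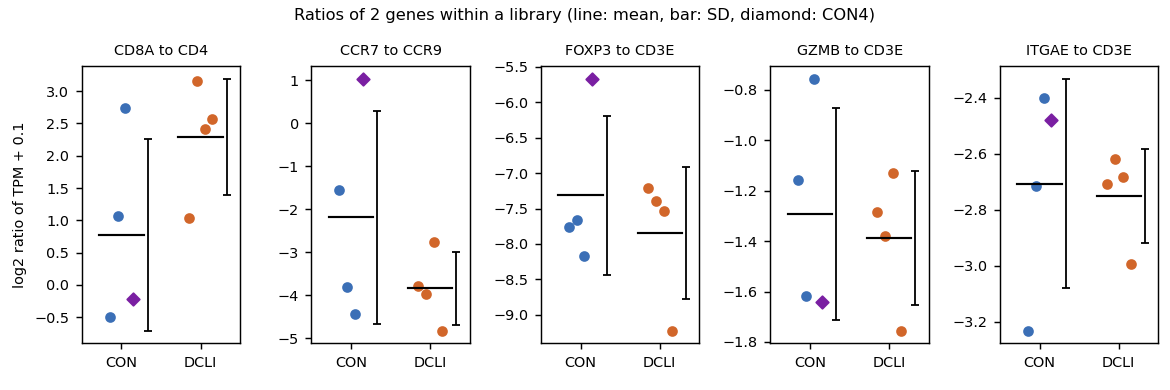
Log2 ratio of the TPM of 2 genes within each library (0.1 added to each TPM), for CON and DCLI calves, with 1 panel and vertical scale per ratio. Lines are group means and bars SD (n = 4 calves); the groups overlap in all 5 ratios, and CON4 (purple diamond) is far above the other calves for CCR7 to CCR9 and for FOXP3 to CD3E.

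Set against the CD3 chains of its own library, CON4 showed which genes were low with CD3 and which were not. The geometric mean TPM of CD3D, CD3E and CD3G was 35.6 in CON4 and 100.2 to 131 in the other calves. These chains are counted among the 42 members below, and their own place within the range was largely fixed by this choice of reference mean. The log2 ratio of a member to this mean was above all 7 other calves in CON4 for 24 of 42 members, within their range for 16 and below it for 2. The share of all genes above the range was not taken on this scale, so the 24 are no result particular to the members. A low CD3 mean raises the ratio of any gene that is not itself low in CON4. SKAP1, at 31.4 TPM in CON4 and 26.8 to 35.3 in the other calves, was 3.53 times the geometric mean of their ratios. Of the cytotoxic genes, CD8A, CD8B, GZMB, PRF1, KLRK1 and IFNG lay within the range, NKG7 (3.15 times the geometric mean of the other calves), EOMES (2.34), IL2RB (2.14), TBX21 (1.40) and CRTAM (1.25) above it, and gzmA (0.35) and CD96 (0.72) below it. CCR9 and ITGAE lay within the range and ITGB7 above it. CD27 was 32.8 times the same mean, CCR7 23.7 times, IL2RA 21.8 times, TIGIT 6.95 times, LCK 5.96 times and FOXP3 4.71 times. All 4 helper genes were above the range. The 2 groups overlapped for all 42 members on this scale, on which the share of all genes without overlap was not taken. The B cell sum was high in the same library, and its part in these ratios was not tested. These ratios were computed after the levels had been seen.

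**Figure D5:**
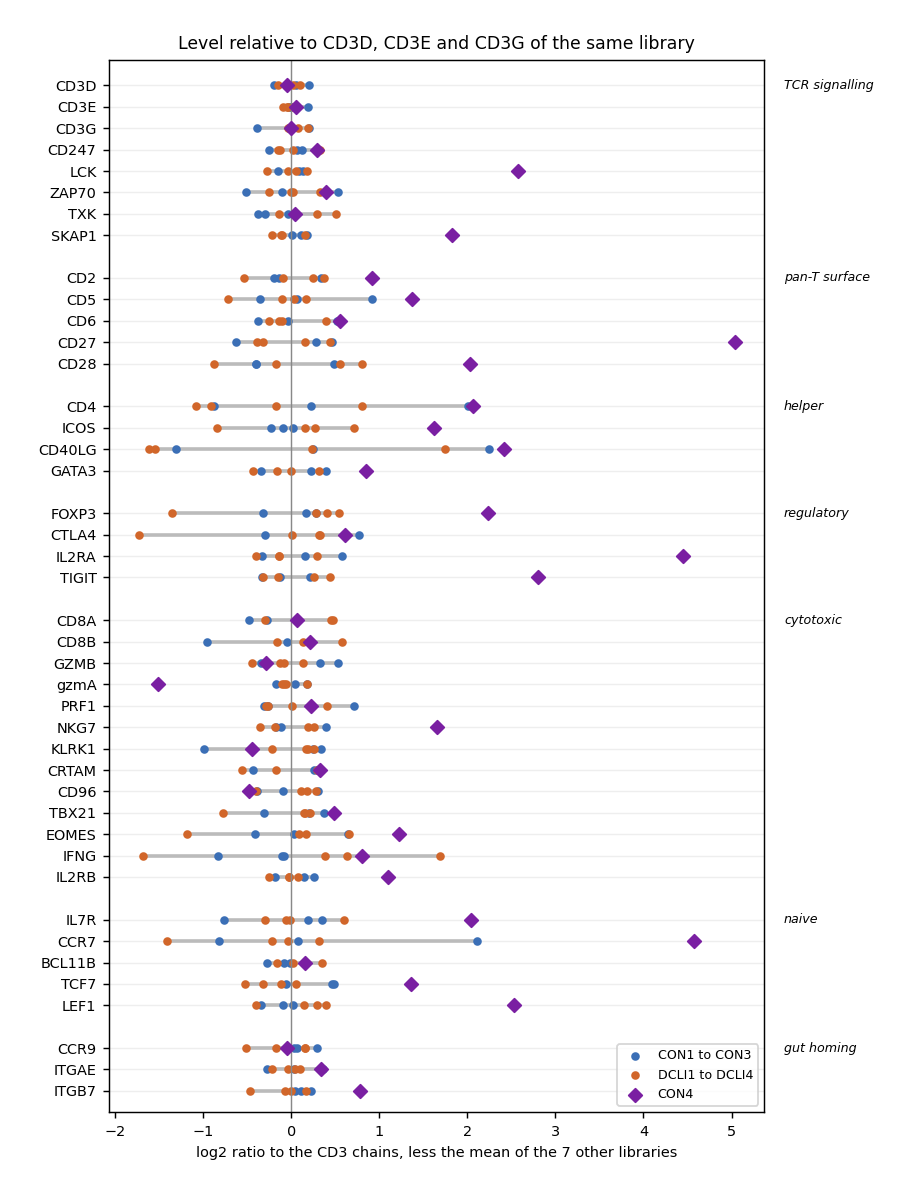
Log2 ratio of each gene to the geometric mean of CD3D, CD3E and CD3G in the same library, shown less the mean of the 7 libraries other than CON4 (grey bar: their range). CON4 (purple diamond) lies to the right of the range for 24 genes, most of all CD27 and CCR7, and to the left of it for gzmA and CD96. The share of all genes to the right was not taken.

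Further genes of the pathway, taken from lists drawn up beside the members, gave few contrasts. Of 34 tested genes of T cell receptor signalling, 15 were higher and 19 lower in DCLI (median -0.06, and 0.10 without CON4). An unadjusted p under 0.05 was reached by 1 of the 34, against 7.08% of all tested genes. That gene was FYB1, an adaptor between the receptor and the cytoskeleton, at 10.4, 11.9, 9.97 and 8.96 TPM in CON and 14.8, 13.95, 15.3 and 13.0 in DCLI. The groups did not overlap, and the log2 difference of 0.44 (SE 0.17, limma adjusted p = 0.696) was 0.38 without CON4. NFATC1 and NFATC2, transcription factors of activated lymphocytes, reached 28.4 and 25.4 TPM in CON4 and at most 4.62 and 6.95 elsewhere. Of 30 tested genes of T cell differentiation and trafficking, 8 were higher and 22 lower (median -0.32, and -0.08 without CON4). S1PR1, the receptor by which lymphocytes leave tissue, was at 7.27, 7.62, 7.90 and 11.0 in CON and at 5.79, 6.71, 5.81 and 5.40 in DCLI, without overlap (log2 difference -0.44, SE 0.20, limma adjusted p = 0.700; -0.31 without CON4). ID3, an inhibitor of E proteins, was also lower in every DCLI calf (79.9 to 103 TPM) than in every CON calf (105 to 234). CXCR4 and BCL6, both abundant in germinal centres, were at 356 and 138 TPM in CON4 and at most 10.5 and 14.2 elsewhere.

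Of 21 tested genes of gamma-delta, natural killer and innate-like lymphocytes, 11 were higher and 10 lower (median 0.03, and -0.12 without CON4). At an unadjusted p under 0.05, 2 of the 21 were higher, against 4.09% of all tested genes. KLRD1, the CD94 partner of NKG2 receptors, was at 7.78, 13.5, 17.8 and 3.28 TPM in CON and at 16.3, 30.4, 25.5 and 15.96 in DCLI. CON3 lay within the DCLI range and the other control calves below it (log2 difference 1.14, SE 0.45, limma adjusted p = 0.696; 0.73 without CON4). The other gene was TNFSF10, the death ligand TRAIL, named after its values were seen, at 7.78 to 16.5 TPM in CON and 16.1 to 37.9 in DCLI. HCST, the adaptor through which KLRK1 signals, was at 91.5 TPM in CON4, 7.99 to 15.6 in the other control calves and 0 to 15.1 in DCLI. The bovine WC1 receptors of gamma-delta T cells were at most 2.07 TPM in any calf (WC1.3 in DCLI1). Of the 35 genes listed 29 were present in the data. TRDC and TRGC1, genes of the gamma-delta receptor itself, were absent, so the amount of gamma-delta T cells cannot be read from these values.

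Of 28 tested ligands and partners of the members, 12 were higher and 16 lower (median -0.15), and 13 and 15 without CON4 (median -0.021). An unadjusted p under 0.05 was reached by 4 of the 28, against 7.08% of all tested genes. IL18, a cytokine that drives interferon gamma in T and natural killer cells, was at 34.5, 97.6, 45.9 and 56.2 TPM in CON and at 130, 138, 103 and 115 in DCLI. Every DCLI calf was above every CON calf, and the mean was 122 ± 15.8 against 58.6 ± 27.5 (SD, n = 4). The log2 difference of 1.14 (SE 0.30, unadjusted p = 0.0044, limma adjusted p = 0.692) was 1.15 without CON4 (adjusted p = 0.379). ICAM1, the adhesion molecule that T cells bind on other cells, was at 25.9, 17.6, 20.9 and 47.4 in CON and at 12.9, 7.59, 17.1 and 7.14 in DCLI, again without overlap (log2 difference -1.23, SE 0.37, limma adjusted p = 0.692; -0.95 without CON4). The other pair were named after their values were seen. IL7, the ligand of IL7R, was at 7.95, 14.1, 14 and 5.22 TPM in CON and at 20.8, 25.4, 18.6 and 13.6 in DCLI (log2 difference 0.93, SE 0.33, limma adjusted p = 0.692, and 0.67 without CON4). CCL21, a ligand of CCR7, was at 54, 40.8, 21.4 and 41.1 TPM in CON and at 23.1, 9.63, 24.2 and 15.6 in DCLI (log2 difference -1.08, SE 0.36, limma adjusted p = 0.692, and -1.04 without CON4). CCL25, the epithelial ligand of CCR9, was at 1534, 1277, 509 and 104 in CON and at 1918, 1785, 1372 and 1219 in DCLI. Only CON4 and CON3 were far below the DCLI calves, and the log2 difference of 1.44 (SE 0.75, limma adjusted p = 0.718) was 0.63 without CON4. The enterocyte sum was 10131 to 29445 in CON1 to CON3 and 20236 to 35066 in DCLI, and its part in the values of CCL25 and IL18 was not tested.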

How the data were processed

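Libraries from the jejunum of 8 calves were analysed. Reads had been cleaned with SOAPnuke, mapped to the cattle assembly with HISAT2 and assigned to transcripts with RSEM by the authors. The values used are the TPM they deposited, with each library kept apart. Estimated counts deposited beside them fill 76 of 50681 rows and do not follow the genes named there, so they were left out and no count model was run. The submitters' processing notes name DESeq2 1.4.5. Rows with 1 gene ID were added up, which gave 17932 genes, and 42 of 42 members carry the same symbol in RefSeq (ARS-UCD2.0), used for names alone. TPM holds no read depth, so errors are those between calves. No libraries were identical.

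Tests used limma 3.58.1 with trend (R 4.3.3) on log2(TPM + 1), with Benjamini-Hochberg adjustment across the tested genes, after being checked on simulated data. CD40LG and EOMES were fitted without the filter on low values. Single values and 5 ratios were tested over all 70 assignments of calves (exact permutation). Named with values per calf were members without overlap or at an unadjusted p under 0.05, the 2 largest differences and the most abundant gene of each role group, and CD3E, CD4, CD8A, FOXP3, GZMB, gzmA and PRF1. From the pathway lists, genes without overlap and the 2 largest differences of each list were named, and from each list of another cell type its most abundant gene. Members, lists and rules were chosen with earlier results of these data known. Python 3.11.15, numpy 2.4.6, pandas 2.3.3 and matplotlib 3.10.9 were used. Alternatives changed the pseudocount, filter, scaling, variance model, weights, replicate block and libraries.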

Additional observations from a re-analysis of the deposited data

Results flagged for a closer look

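In each group of 4 calves, the highest or lowest value was set against the other 3 by Dixon's criterion. Of 130 groups, 17 passed its 95% critical value, and CON4 held 12 of these. About 1 in 20 passes by chance only where groups are independent and were not picked by their values. The genes outside the members were picked by their values in these calves, and genes of 1 library are not independent. That rate is therefore no measure of the 17. Among the members, CD27 (113.53 TPM), IL2RA (21.68) and LEF1 (3.64) were far above the other control calves in CON4, and BCL11B (1.5) was far below. Among the other lists CON4 was far above for NFATC1 (28.44 TPM), NFATC2 (25.43), ID3 (234.18), S1PR1 (11.03), CXCR4 (356.08), BCL6 (137.66), HCST (91.47) and the B cell gene VPREB3 (1033.1).

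In the remaining groups, EOMES was high in CON1 (1.62 TPM), KLRK1 low in DCLI1 (15.36) and TBX21 low in DCLI4 (2.52). ID3 was also low in DCLI4 (79.91 TPM), as was the log2 ratio of FOXP3 to CD3E (-9.223).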

How the results depend on the processing

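No member passed an adjusted p of 0.05 under any of the 15 alternatives to the limma test, where the smallest adjusted p was 0.291 (CD8B). CD8A kept a positive log2 difference of 0.49 to 0.98 and TXK one of 0.40 to 0.92. Apart from leaving out calves, 5 of 280 member values changed sign, all with array weights, which gave LCK 0.19, SKAP1 0.030, FOXP3 0.11, TIGIT 0.13 and CCR9 -0.13, and in another list JCHAIN -0.35. The array weights ran from 0.098 for CON4 to 3.12 for CON2. With CON4 left out instead, LCK (0.06), TIGIT (0.22) and CCR9 (-0.11) changed sign too. SKAP1 (-0.06) and JCHAIN (0.70) did not, and FOXP3 missed the filter. The part of the weights in these changes was not tested.

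Replicate numbers did not pair the calves: the correlation of same-numbered calves was -0.198 to 0.0507, and 1 of 8 calves correlated best with its own number. With the replicate number as a block, 0 genes passed an adjusted p of 0.05, and 1 member had an unadjusted p under 0.05. The share of all genes at that unadjusted p was not taken for this fit.

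Leaving out 1 calf at a time gave 0 to 4 members at an unadjusted p under 0.05, 3 to 7 without overlap and a median of the receptor genes of 0.10 to 0.68. Medians that changed sign ranged from -0.030 to 0.36 (pan-T), -0.044 to 0.24 (helper), -0.21 to 0.080 (regulatory), -0.19 to 0.21 (naive) and -0.11 to 0.47 (gut homing). CD4 ranged from -1.09 to -0.071 and the log2 ratio of CCR7 to CCR9 from -2.39 to -0.57. Without CON4, 9 of 38 members changed sign. The log2 ratios to CD3E ranged from -0.81 to 0.021 for FOXP3, -0.21 to 0.084 for GZMB and -0.22 to 0.058 for ITGAE. The genes whose log2 difference changed sign had ranges of LCK -0.29 to 0.062, CD5 -0.32 to 0.20, CD27 -1.30 to 0.030, GATA3 -0.044 to 0.24, FOXP3 -0.12 to 0.16, CTLA4 -0.34 to 0.19, TIGIT -0.28 to 0.22, GZMB -0.20 to 0.62, NKG7 -0.068 to 0.25, TBX21 -0.033 to 0.39, IL2RB -0.020 to 0.31, IL7R -0.19 to 0.27, LEF1 -0.0014 to 0.25, CCR9 -0.11 to 0.50, ITGB7 -0.11 to 0.28, CXCR4 -1.86 to 0.023, JCHAIN -0.045 to 1.07, C1QA -0.61 to 0.11 and PECAM1 -0.30 to 0.054. TPM itself gives no depth. The paper lists the reads of each library, but no usable counts per gene were at hand, and the precision of low genes such as FOXP3 was not estimated.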
